A study of Homo sapiens with 2 samples.

Results

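The genes described here encode 10 proteins of stress granules, and the data are the YBX1 binding sites that lie on their transcripts in the human embryonic kidney line HEK293. The genes were taken by name as stress granule proteins (G3BP1, G3BP2, NUFIP2, CAPRIN1, UBAP2L, USP10, TIA1, TIAL1, ATXN2 and ATXN2L). A site was taken when its midpoint lay inside the span of one of these genes in GENCODE, on the strand of the gene. This gave 12 of the 2054 listed sites, and these lay in 3 of the 10 genes, with 6 in NUFIP2, 5 in G3BP1 and 1 in G3BP2. Of all 19550 protein-coding genes with a 3′UTR, 6.43% had at least 1 site. No site was listed for the other 7 genes.

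YBX1 was mapped by PAR-CLIP, in which cells take up 4-thiouridine, the RNA that contains it is crosslinked by UV light to the proteins bound to it, and these are pulled down with their RNA. Per the study's methods, the T-REx HEK293 Flp-In cells stably overexpressed YBX1 with a FLAG/HA tag and an anti-FLAG antibody was used. The labels of the samples give D2A11, an antibody against YBX1, instead. No stress treatment of the cells is named in the study's methods for this experiment. The study has 2 samples of 1 group and no control group. The authors pooled both samples into 1 list of positions, so the variation from sample to sample is unknown, and all intervals given are of counting error alone. Reads per site and their conversions are not in the list. The depth at a site is therefore unknown, and an mRNA without a listed site was not shown to be free of YBX1.

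Stress granules are cytoplasmic bodies of protein and stalled mRNA that form when translation initiation is blocked, for instance after phosphorylation of eIF2α. G3BP1 and its paralogue G3BP2 are the proteins around which they condense. CAPRIN1, UBAP2L and NUFIP2 bind G3BP proteins and favour assembly, while USP10, a deubiquitinase, binds the same domain of G3BP and opposes it. TIA1 and TIAL1 are RNA-binding proteins with prion-like ends, and ATXN2 and ATXN2L are ataxin-2 proteins that bind poly(A)-binding protein. YBX1 is itself found in stress granules, and it has been described as an activator of G3BP1 translation through the 5′UTR of that mRNA.

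The 12 sites carry the finding and are given here as RNA strand sequences from GRCh38, written with T for U, 5′ to 3′, and numbered in that order within each mRNA. Capitals mark the bases covered by any of 11 tetramers searched on the RNA strand, with overlaps allowed. The tetramers, each with the share of the 1601 sites wholly inside 1 exon of a protein-coding gene that hold it, are AACA (32.7%), AACT (30.2%), CAAC (29.7%), ACTT (27.9%), CATC (27.8%), ACAT (27.4%), ACAA (25.6%), TAAC (25.1%), TTAC (24.1%), ACTC (23.4%) and CACC (15.1%). They were chosen as frequent from the whole list, of which the 12 sites are part.
G3BP1 site 1: tcACAAAACTTCACCAACTg
G3BP1 site 2: cttctctcTAACAACAACcag
G3BP1 site 3: aTTACctaaaaccctTAACcag
G3BP1 site 4: ttcaTAACTTACcccttcag
G3BP1 site 5: ttTTACtACTTTACtag
G3BP2 site 1: ccttctattaatACATCattccag
NUFIP2 site 1: cctCAACAAAACTatacag
NUFIP2 site 2: ctaatACTCTAACACCCATCtcttctg
NUFIP2 site 3: TTACATtgcCATCctg
NUFIP2 site 4: cttttctaatttccttccatatccctcag
NUFIP2 site 5: ctatataccatACATataccatag
NUFIP2 site 6: ttaaatcaaatcaatcaaAACTCcag

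G3BP1 (ENSG00000145907.16, chromosome 5, plus strand, 151771045 to 151812911) carried sites in its coding sequence and in the middle and later parts of its 3′UTR. In the MANE Select transcript, the reference isoform of 10227 nt used for all positions below, the 3′UTR makes up 8694 nt. Sites 1 and 2 lay in exon 4 of 12, in the coding sequence, and began at nt 199 and nt 289 of it (chr5:151790910-151790929 and chr5:151791000-151791020). This stretch encodes part of the NTF2-like domain, through which G3BP1 forms dimers and binds CAPRIN1 and USP10. The gap between both sites was 70 nt. Site 3 began at nt 4307 of the 3′UTR (chr5:151808398-151808419), which is 49.5% of the way along it. Sites 4 and 5 began at nt 6456 and nt 6501 (chr5:151810547-151810566 and chr5:151810592-151810608) and were only 25 nt apart. No site lay between the stop codon and nt 4307 of the 3′UTR.

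The 3 downstream sites of G3BP1 depend on which transcript is taken as the gene. The authors' annotation places sites 1 and 2 in an exon of G3BP1 and calls sites 3, 4 and 5 intergenic, although it gives G3BP1 as their nearest gene. In GENCODE, 13 of the 56 coding transcripts of G3BP1 contain each of these 3 sites, all as 3′UTR, and the MANE Select transcript is one of them. Of these 13, 6 are annotated as targets of nonsense-mediated decay. Site 1 lies in 30 of the 56 coding transcripts, as coding sequence in 25 and as 3′UTR in 5. All 5 of the latter are such decay targets. Site 5 has a sequence of 17 nt that occurs at 3 places in the genome, the others being in LINGO1 on chromosome 15 and elsewhere on chromosome 5. The sequences of the other 4 sites occur once.

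NUFIP2 (ENSG00000108256.9, chromosome 17, minus strand, 29255839 to 29294148) had 6 sites spread over an mRNA of much the same build, with 10877 nt in all and a 3′UTR of 8700 nt. Sites 1 and 2 lay in exon 2 of 4, in the coding sequence of 2088 nt, and began at nt 1095 and nt 1319 of it (chr17:29286881-29286899 and chr17:29286649-29286675). Sites 3 and 4 began at nt 1274 and nt 2505 of the 3′UTR (chr17:29263250-29263265 and chr17:29262006-29262034), which is 14.6% and 28.8% of the way along it. Sites 5 and 6 followed at nt 5731 and nt 6146 (chr17:29258785-29258808 and chr17:29258368-29258393). In contrast to G3BP1, the authors' annotation and GENCODE placed these sites alike, with 2 in exons and 4 in the 3′UTR. The sequence of site 3, at 16 nt the shortest of the 12, occurs at 4 places in the genome. The other 3 lie in NOMO1, NOMO2 and NOMO3 on chromosome 16, outside their mature reference transcripts.

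G3BP2 (ENSG00000138757.15, chromosome 4, minus strand, 75641849 to 75724589) had 1 site, at nt 896 of its 3′UTR of 2644 nt (chr4:75644511-75644534). Its sequence occurs once in the genome, and 37 of 64 coding transcripts contain it as 3′UTR. The coding sequences of G3BP1 and G3BP2 were identical at 67.0% of 1368 aligned bases, and the stretches of G3BP2 that align with the 2 coding sites of G3BP1 carried no site. These stretches are shown because both mRNAs encode the same domain there, while only that of G3BP1 has sites listed.
G3BP2 opposite G3BP1 site 1: tctctgAACTTcagtgaatg
G3BP2 opposite G3BP1 site 2: ttgctgtcTAACAgtggACAA
The first was identical to G3BP1 at 13 of 20 bases and the second at 12 of 21. Before their last base the G3BP1 sites hold no G, whereas the G3BP2 stretches hold 3 and 5. The part of these bases in the difference was not tested.

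**Figure D1:**
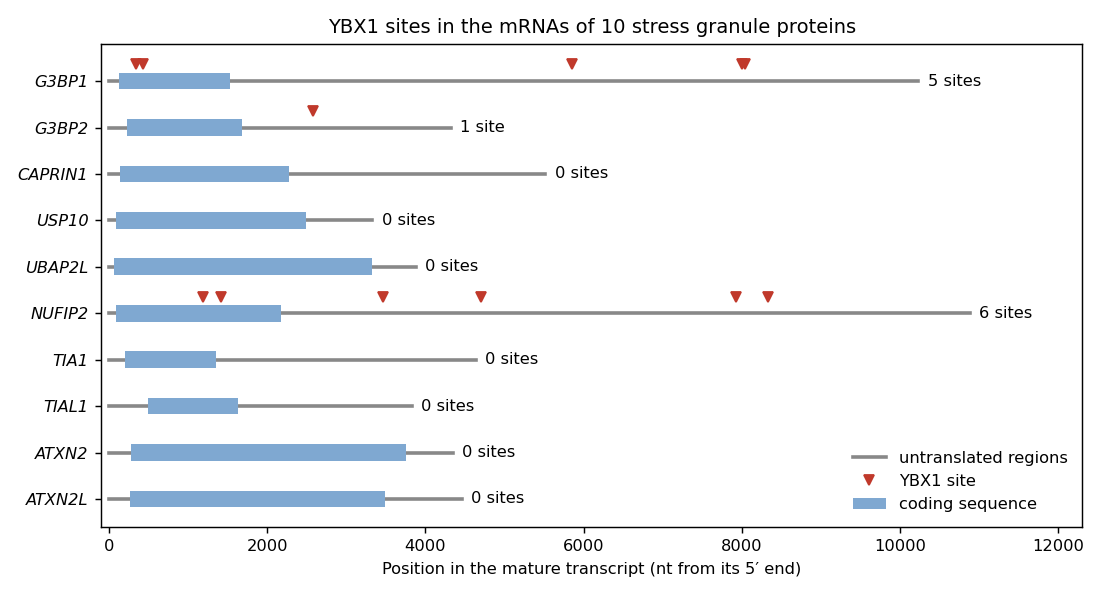
The mature reference transcripts of the 10 genes are drawn to scale from their 5′ end, in nt, with the coding sequence as a blue bar, the untranslated regions as a grey line and each YBX1 site as a red triangle. NUFIP2 (6 sites) and G3BP1 (5 sites) are the longest of the 10 mRNAs and have 2 coding sites each, G3BP2 has 1 site, and the other 7 mRNAs have none.

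The 7 genes without a listed site were partners of the G3BP proteins, the TIA proteins and the ataxin-2 proteins. CAPRIN1 (chromosome 11, 34051731 to 34102610) has a mature transcript of 5514 nt with a 3′UTR of 3243 nt, and USP10 (chromosome 16, 84699986 to 84779922) one of 3328 nt with 840 nt. UBAP2L (chromosome 1, 154220179 to 154271510) has 3877 nt, of which 552 nt are 3′UTR. TIA1 (chromosome 2, 70209444 to 70248660) and TIAL1 (chromosome 10, 119571802 to 119597029) have 3′UTRs of 3275 nt and 2200 nt, close to that of G3BP2 at 2644 nt. ATXN2 (chromosome 12, 111443485 to 111599676) and ATXN2L (chromosome 16, 28822999 to 28837237) have short 3′UTRs of 598 nt and 967 nt. The gene names in the deposited annotation of the sites do not include any of these genes either. No site lay in the 5′UTR of any of the 10 mRNAs. The 5′UTR of G3BP1 measures 132 nt and those of the others 61 nt to 499 nt, and in the whole list 24 sites (1.17%) lay in 5′UTRs.

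Inside the spans of these genes, 2 more sites lay on the opposite strand and were not counted. The site chr12:111449553-111449573 falls in an intron of ATXN2, and on its own strand it lies in the 3′UTR of SH2B3, an adaptor protein gene that overlaps ATXN2. The site chr16:84779677-84779695 lies opposite the last exon of USP10. No GENCODE gene covers it on its own strand, the authors' annotation assigns it to a noncoding transcript of CRISPLD2, and its sequence occurs at 5 places in the genome. With either strand counted, 5 of the 10 genes would have a site.

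Against the 6.43% of all protein-coding genes with a site, 3 of the 10 genes come to 30.0% (Wilson 95% interval 10.8 to 60.3). At least 2 sites were found in 1.39% of all genes and in 2 of the 10, and at least 5 in 0.118% of all genes and in the same 2, G3BP1 and NUFIP2. The 10 genes were chosen with these counts known, so no test was made on them as a group. No expression values were used, so genes that are silent in HEK293 cells are part of the 19550.

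NUFIP2 and G3BP1 also have the longest mRNAs of the 10 genes. Per kb of mature transcript, NUFIP2 had 0.552 sites (exact Poisson 95% interval 0.202 to 1.20), G3BP1 0.489 (0.159 to 1.14) and G3BP2 0.231 (0.00586 to 1.29). These intervals overlap, and so do the upper limits for the genes without a site, which run from 0.669 per kb for CAPRIN1 to 1.11 for USP10. The order of the genes per kb is therefore within counting error. In the 3′UTR alone the densities were closer still, with 0.460 sites per kb in NUFIP2, 0.345 in G3BP1 and 0.378 in G3BP2.

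To set each gene against the whole list, a zero-truncated Poisson rate per kb of mature transcript was fitted over the 1155 protein-coding genes with a site in an exon, with an exact upper-tail test per gene and Benjamini-Hochberg adjustment over all of them. The fit gave 1.96 sites for a gene of the length of NUFIP2, which had 6 (exact upper tail, unadjusted p = 0.00652, adjusted p = 0.243), and 1.90 for G3BP1, which had 5 (unadjusted p = 0.0215, adjusted p = 0.605). G3BP2 had 1 site, the least that a gene in this fit can have, so the test says nothing about it. Over the list, 1.47% of the genes passed, and neither NUFIP2 nor G3BP1 was among them. In number of sites, NUFIP2 ranked 6th with 5 other genes and G3BP1 12th with 13 others. Per kb they ranked 247th and 301st of the 1155, since short mRNAs with a single site reach high values. Among 650 genes with a mature transcript of 9 to 12 kb, 70 (10.8%) had a site in an exon, of which 44 had exactly 1 and 5 had at least 5. These 5 were CBX5 with 8, MED13 and NUFIP2 with 6 each, and G3BP1 and RLIM with 5 each.

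**Figure D2:**
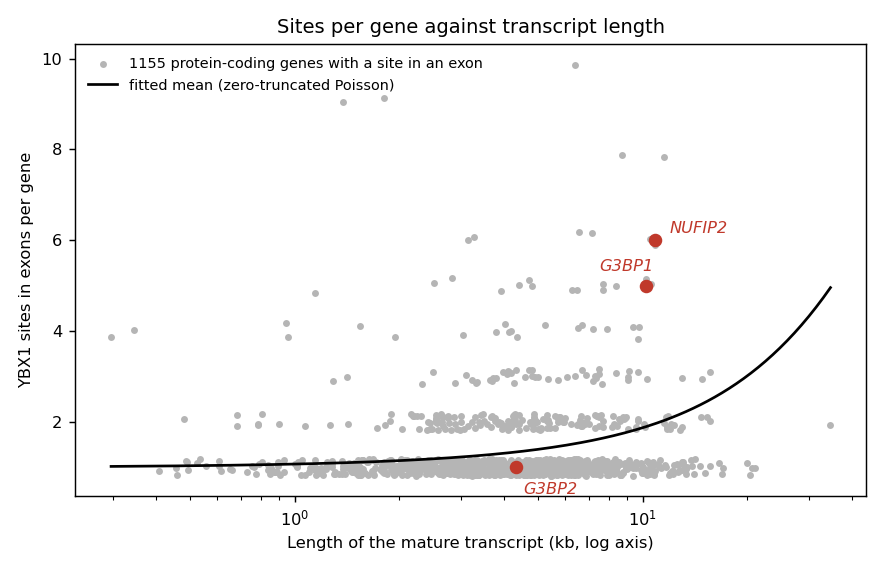
Each point is 1 of the 1155 protein-coding genes with a YBX1 site in an exon, with the length of its mature transcript in kb on a log axis and its number of sites on the vertical axis, jittered to separate the grey points. NUFIP2 and G3BP1 (red) lie above the black line of the fitted mean, at 6 against 1.96 and 5 against 1.90, and G3BP2 lies below it, as does every gene with 1 site.

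NUFIP2 and G3BP1, the mRNAs with the most sites of the 10, carried them in the coding sequence as well as in the 3′UTR. Of the 12 sites, 8 lay in 3′UTRs and 4 in coding sequence of the reference transcripts (66.7% in 3′UTRs, Wilson 95% interval 39.1 to 86.2), against 46.5% of all 2054 sites in 3′UTRs in the same annotation. With every GENCODE transcript considered and 3′UTR taken first, 10 of the 12 were 3′UTR sites (83.3%, 55.2 to 95.3), because of the decay transcripts of G3BP1, and 55.4% of all sites. All 12 sites lay in mRNA exons, which is not so for the 2054. With 1 transcript per gene, 6.33% of the 2054 were intronic, 4.82% in noncoding exons and 10.5% intergenic, so these shares are not like for like. Coding sequence held 33.3% of the 12 sites and 30.9% of the 2054. In the authors' annotation 5 of the 12 were 3′UTR sites (41.7%, 19.3 to 68.1), 4 lay in exons and 3 were intergenic. Over all 2054 sites that annotation gives 35.4% 3′UTR, 27.4% exon and 9.98% intergenic. A site in each of both regions was found in 8.86% of all 1129 genes with a site in either, and in 47.8% of the 23 genes with at least 5 sites, to which G3BP1 and NUFIP2 belong.
By length alone, the 3′UTR would take 85.0% of the sites in G3BP1 and 80.0% in NUFIP2, and it held 3 of 5 and 4 of 6. An exact binomial test per gene, two-sided, gave p = 0.165 and p = 0.345, and an adjusted p of 1 for both over 1143 genes. With 5 and 6 sites, no placement in these 2 genes could have passed after this adjustment. The test therefore cannot decide whether their sites follow length. In this test 0 genes of the whole list passed (0% called), and 5 had an unadjusted p under 0.05. Per kb, G3BP1 had 1.43 sites in the coding sequence and 0.345 in the 3′UTR, and NUFIP2 0.958 and 0.460. Each coding density rests on 2 sites, and no interval was computed for it. For the 3′UTR the exact Poisson 95% intervals were wide, at 0.0712 to 1.01 in G3BP1 and 0.125 to 1.18 in NUFIP2.

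Pairs of close sites and long empty stretches were both present in G3BP1. Between neighbouring sites of the 10 genes the gap ran from 25 nt to 5398 nt, both in G3BP1, with a median of 1215 nt over 9 gaps. Over 452 such gaps in all genes with several sites the median was 582 nt. The 9 gaps all lie in G3BP1 and NUFIP2, with mRNAs of 10227 nt and 10877 nt. The median mature length of bound genes was 4075 nt, and the gaps were not matched by length. Gaps of at most 100 nt made up 2 of 9 in the 10 genes, both in G3BP1, and 13.3% in all genes. NUFIP2 had its closest pair in the coding sequence, 205 nt apart, and the next closest at sites 5 and 6, 391 nt apart.

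The sites were 16 nt to 29 nt wide, with a median of 21.5 nt against 22 nt over all sites. All 5 sites of G3BP1 were at most 22 nt wide, whereas 4 of the 6 in NUFIP2 and the 1 in G3BP2 were wider than that. The RNA was trimmed with RNase T1, which cuts single-stranded RNA after G. All 12 sites ended in G, as did 87.6% of all sites, and 11 held no other G. The listed ends were read so that the last base falls on the G left by the enzyme. How many sites end in G therefore depends in part on that reading. Only NUFIP2 site 3 has a G inside, and over the whole list 22.6% of the sites do. All 5 sites of G3BP1, the site of G3BP2 and NUFIP2 sites 2 and 4 were preceded by G, and thus spanned a whole fragment from one G to the next. This held for 8 of the 12 sites and for 64.5% of all sites. NUFIP2 sites 1, 5 and 6 began inside such a fragment.

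The bases of the sites varied more among themselves than their mean differed from that of the list. C and A made up 41.2% (G3BP1 site 5) to 79.0% (NUFIP2 site 1) of a site, with a median of 71.4% in G3BP1 and 64.8% in NUFIP2. U, the base that crosslinks, was present 3 times in NUFIP2 site 1 and 13 times in NUFIP2 site 4, which is a run of C and U with few A. G3BP1 sites 1, 2 and 3 were rich in A and C, while G3BP1 site 5, next to site 4, held 9 U in 17 nt.
For 10 of the 12 sites, there was a comparison window of equal width, 100 nt from the site, inside its exon and free of other sites. G3BP1 sites 1 and 2 had none. In these 10 the mean share of C and A was 61.6% in the sites and 55.2% in the windows, a difference of 6.40 points, and 7 of the 10 sites held more C and A than their windows. Over 1390 sites in exons of all genes the shares were 61.9% and 49.3%. The windows of the 10 sites held 11.8% G, against 20.8% in the windows of all sites. The direction stayed in the other settings tried, but with G left out of the bases counted the difference came to 2.22 points, and it ran from 0.726 points for sites extended by 10 nt to 18.1 points for windows 300 nt away.

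**Figure D3:**
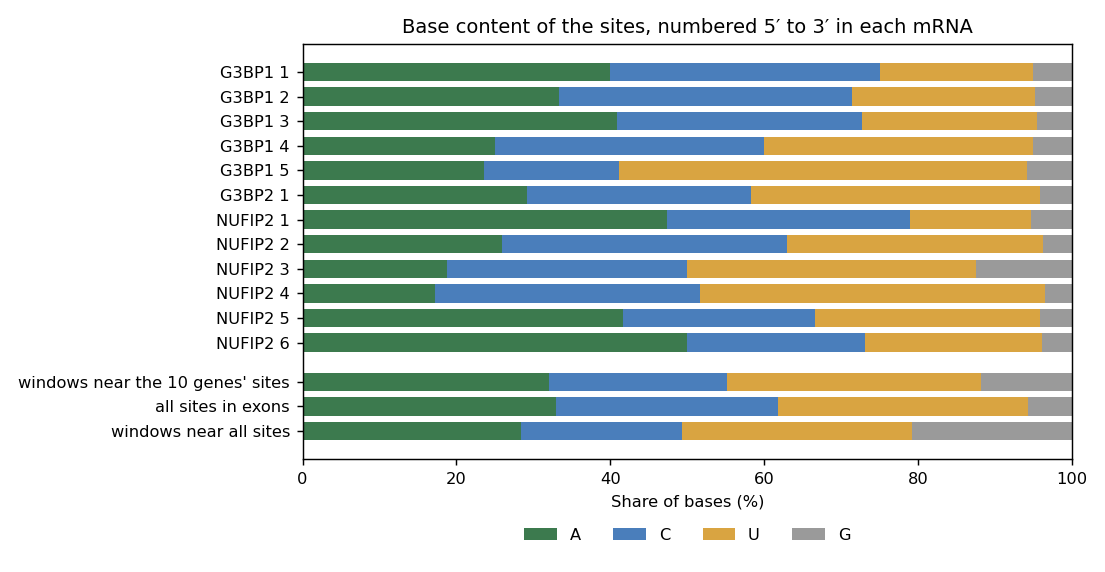
Each bar gives the share of A, C, U and G, in percent, of 1 of the 12 sites, and the lower 3 bars give means over the windows 100 nt from the sites of the 10 genes, over all sites in exons and over their windows. G is at most 1 base in every site but NUFIP2 site 3, and the sum of A and C runs from 41.2% in G3BP1 site 5 to 79.0% in NUFIP2 site 1.

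At least 1 of the 11 tetramers was found in all sites but NUFIP2 site 4, or 11 of 12, and in 93.1% of the 1601 sites wholly inside an exon. AACT, TAAC and TTAC were each found in 4 of the 12 sites. CAAC was found in G3BP1 sites 1 and 2 and NUFIP2 site 1. CATC, the core of the sequence that the cold-shock domain of YBX1 recognises, was found in the site of G3BP2 and in NUFIP2 sites 2 and 3. CACC was found in G3BP1 site 1 and NUFIP2 site 2. The tetramers covered 85.0% of G3BP1 site 1, 64.7% of G3BP1 site 5 and 0% of NUFIP2 site 4. Their mean cover over the 10 sites with a window was 36.9%, against 24.1% in the windows. Over all genes it was 38.6% against 13.1%. As the tetramers were picked from this list of sites, higher cover in sites than in windows was partly fixed by that choice.

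Since RNase T1 limits where a site can be seen, the mature mRNAs were searched for stretches of at least 16 nt without G that end in one. Of 1608 sites with their midpoint in an exon of a protein-coding gene, 92.8% lay in such a stretch, and 11 of the 12 did here, all but NUFIP2 site 3. The 10 mRNAs hold 341 such stretches, or 6.15 per kb, against 5.66 per kb in all genes with a site in an exon. Of these stretches, 5 of 69 carried a site in G3BP1 (7.25%), 5 of 77 in NUFIP2 (6.49%) and 1 of 22 in G3BP2 (4.55%), against 4.79% in all genes with a site in an exon. In the genes without a site there were 33 stretches in CAPRIN1, 31 in TIAL1, 29 in TIA1, 27 in ATXN2, 25 in UBAP2L and 14 each in USP10 and ATXN2L, none with a listed site. The 5′UTR of G3BP1 held 0 such stretches.
Within an mRNA, the stretches with a site tended towards higher cover by the tetramers, but not in every case. Because the tetramers were chosen as frequent in this same list of sites, such a tendency was partly fixed by the choice. It is given as description only. In G3BP1 the median cover was 47.6% over the 5 stretches with a site and 21.4% over the others, and in NUFIP2 it was 43.5% and 22.9%. Over all genes with a site it was 40.0% in 1493 stretches with a site and 23.5% in 29691 without. G3BP1 sites 1 and 5 lay in the 1st and 2nd of its 69 stretches by cover, and site 2 in the 12th. In NUFIP2 the best covered stretch with a site, that of site 2, ranked 7th of 77, and the stretch of site 4 had no cover at all. Well covered stretches without a site were present too. At least 50% was covered in 10 stretches of NUFIP2, of which 1 carried a site, in 10 of G3BP1, of which 2 did, and in 8 of UBAP2L, 7 of ATXN2 and 5 each of CAPRIN1 and TIA1, of which none did.

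**Figure D4:**
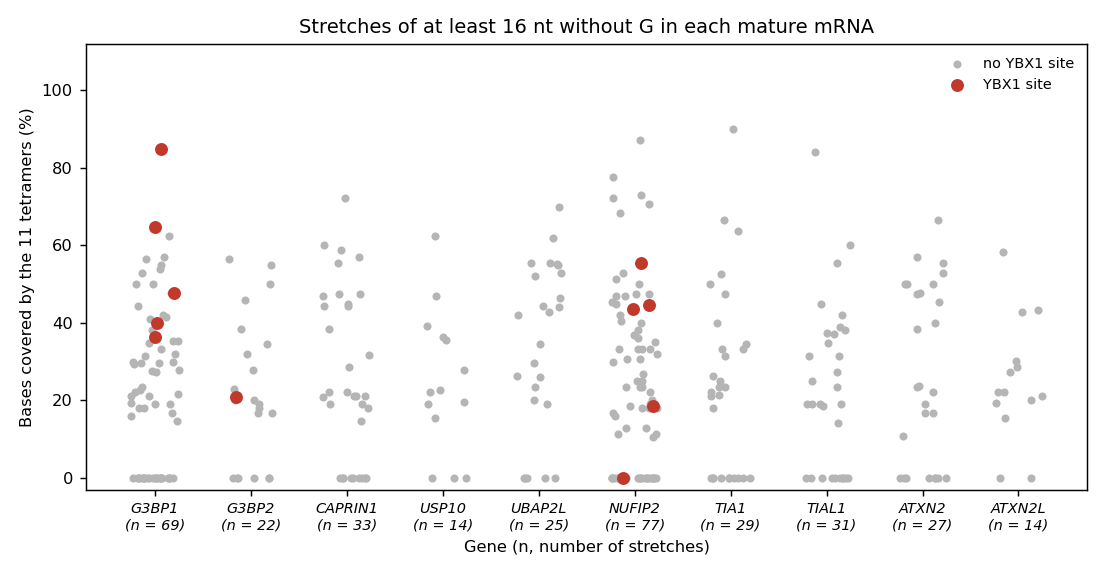
Each point is a stretch of at least 16 nt without G in the mature reference transcript of 1 of the 10 genes, with the percent of its bases that the 11 tetramers cover on the vertical axis, spread sideways to separate the points. Stretches with a YBX1 site (red) include the best covered of G3BP1 (85.0%) and one of NUFIP2 with no cover, and the genes without a site also have stretches over 50%.

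The other genes around stress granules were looked at in 4 lists from textbook knowledge, chosen with earlier results of these data known. Of 58 other RNA-binding and associated proteins of stress granules, 21 had a site (36.2%, Wilson 95% interval 25.1 to 49.1), with 33 sites in all. YBX1 itself is among the 21, and per the study's methods the cells overexpressed it. FXR1 and PRRC2B are counted too, each with 1 site outside the 3′UTR and coding sequence of the reference transcript. SERBP1, an mRNA-binding protein, had 4, all in the 3′UTR. CNOT1, the scaffold of the CCR4-NOT deadenylase, and PRRC2A had 2 each in the coding sequence, and IGF2BP1 had 2 in the 3′UTR. Of 28 genes of translation initiation factors and their subunits, 8 had a site (28.6%, 15.3 to 47.1). EIF1AX had 5, of which 3 have further copies of their sequence in the genome, EIF4G2 had 4 in its coding sequence, and EIF2S1 (the eIF2α subunit itself), EIF3A and EIF5 had 2 each, followed by EIF2S3 with 1.
Of 16 genes that set or read the phosphorylation of eIF2α or act downstream of it, 3 had a site (18.8%, 6.59 to 43.0). These were the downstream transcription factors DDIT3 with 2 and ATF4 with 1, and the phosphatase subunit PPP1CC with 2. None of the 4 eIF2α kinases had a site. Of 39 genes of P-bodies, the granules of mRNA decay, 9 had a site (23.1%, 12.6 to 38.3), led by LSM14A with 3, CNOT7 and ZFP36L2 with 2 each, and AGO2, CNOT8 and DDX6 with 1 each. All of these shares are above the 6.43% of all protein-coding genes, their intervals overlap with each other and with that of the 10 genes, and no test was made on the lists. The 6.43% is over all 19550 genes, silent ones included, and the lists were not matched to it by expression. G3BP1 and NUFIP2 had more sites than any gene of these lists, except that EIF1AX equalled G3BP1.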

How the data were processed

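PAR-CLIP of YBX1 was measured in 2 samples of HEK293 cells. Adapters and low-quality ends were removed by the authors with cutadapt 1.4.1. Alignment to GRCh38 and Ensembl transcripts was done in PARA-suite and clusters were called by strand in BMix with default settings. HOMER gave the annotation. The deposited values, other than names, are start and end positions, with both samples pooled. Read counts were not analysed here, so depth and precision per site are unknown.
Starts were read as base 1 of the chromosome and ends as 1 past the last base, where the G left by RNase T1 lies. Genes came from GENCODE release 44, with the MANE Select, else canonical, transcript per gene. Sequences came from GRCh38, and copies of a site were exact matches on both strands of the main chromosomes. Coding sequences were aligned globally with Biopython 1.88. Statistics used scipy 1.17.1, with a threshold of 0.05 on the adjusted p. Tests were checked on simulated data. For the placement test these had 10 sites in every gene, more than G3BP1 and NUFIP2 have, so the check does not cover their counts. The 10 genes, the lists, the tetramers and the tests were chosen with earlier results of these data known. All 10 genes and up to 6 bound genes with the most sites per list are named, except that some are not reported here. Other names, such as those of genes of like length and of genes at the copies of a site, were picked with their values in view.
The alternatives tried were a site counted on any overlap with a gene, either strand, only sites wider than the median of 22 nt, only sequences found once in the genome, sites within 50 nt merged, the authors' gene names and annotation, coding exons before 3′UTRs, 1 transcript per gene, 3′UTR length, a negative binomial, windows 300 nt away, sites extended by 10 nt, A, C and U alone, and the listed end as last base.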

Additional observations from a re-analysis of the deposited data

How the results depend on the processing

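The number of sites in the 10 genes (12) ranged from 10 to 14 under all other alternatives but was 5 when sites at or below the median width were left out, of which 0 lay in G3BP1, 4 in NUFIP2 and 1 in G3BP2. With either strand counted, 5 genes had a site in place of 3. In the authors' annotation the share of sites in 3′UTRs was 41.7% in place of 83.3%, since 3 sites of G3BP1 are intergenic there and 2 are in an exon that the 83.3% counts as 3′UTR through decay transcripts. Over all sites the share was lower in that annotation as well, at 35.4% in place of 55.4%. Over the whole list, 17 genes had more sites than the length fit gives. There were 4 with the 3′UTR alone, 4 with a negative binomial in place of the Poisson distribution, 5 with only the wider sites and 9 with sites within 50 nt merged. NUFIP2 passed in none of these settings, nor did G3BP1 in those where it had a site (it had no wider one), with adjusted p from 0.243 to 1. In the placement test 0 genes passed in any setting. That test could not have called G3BP1 or NUFIP2 at their numbers of sites, whatever the placement. The excess of C and A over the windows was 18.1 points with windows 300 nt away, in place of 6.40, and smaller among A, C and U alone (2.22), with only the wider sites (3.23) and with sites extended by 10 nt (0.726). The causes of these shifts were not tested, other than that the settings with wider or merged sites hold fewer sites. No paired analysis was possible because both replicates are pooled in the list, and for the same reason no replicate could be left out. A gene with few sites limits what its interval can show.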

Other observations

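The last bases of the sites were looked at after their sequences were seen. Of the 12 sites, 7 end in CAG (3 in G3BP1, 3 in NUFIP2 and the 1 in G3BP2), as do 19.6% of all 2054 sites. No test was made, because the ending was picked from these sites.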
